A study of Mus musculus with 6 samples.

Results

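Solute carriers are membrane proteins that move amino acids, sugars, ions, metals and nucleotides across the cell surface and across the membranes of organelles. They are sorted into numbered families by sequence, each symbol beginning with Slc. In the developing brain they clear transmitters, bring nutrients into cells, set the chloride and bicarbonate of the cytosol, feed mitochondria with glutamate and adenine nucleotides, and load the Golgi with the sulfate and sugar donors used to build glycans. The 44 solute carriers described here were taken from the part of the study's comparison table of ESCs and NPCs that was used, 1999 named genes sorted by their rise in NPCs, by every symbol starting with Slc other than Slc1a2, Slc1a3, Slc2a1 and Slc2a3. The rule finds 46 of the 17144 genes measured, of which these are 44, each found on 1 row of the deposited values, and they stand among 389 protein-coding Slc symbols in RefSeq. The other Slc genes carry no name here.

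RNA was measured on Affymetrix mouse arrays in wild type ESCs and NPCs of the V6.5 line, a blastocyst-derived line of 129SvJae/C57B6 F1 background. The ESCs were kept in serum with LIF. The NPCs were derived from the same ESCs in vitro and kept in N3 medium with bFGF, EGF and laminin, so that cell type and culture medium cannot be told apart. Each cell type had 3 biological replicates on 1 array each, all from 1 line, and the labels do not say whether the NPC replicates came from separate differentiations. Values are on the log2 scale, where a difference of 1 is a doubling of signal.

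The cell type labels were checked against marker genes. The ESC marker Pou5f1 read 12.44 in the mean of the ESC arrays and between 3.61 and 3.83 on the NPC arrays. Of 6 listed progenitor markers 4 were named, Fabp7, Vim, Nes and Sox9, each higher on every NPC array than on every ESC array. Their names came from the table of rising genes, so this direction was fixed by choice and the check rests on Pou5f1. Across genes, the correlation between any pair of ESC arrays was 0.996 to 0.998 and that of NPC replicates 1 and 2 was 0.997. NPC replicate 3 stood apart from the other NPC arrays, at 0.978 to 0.979, and for the carriers on which it departed most the difference is given with and without it. Of 5 listed neuron markers 2 were named, and both were lower in replicate 3 than in the mean of replicates 1 and 2, by -2.08 for Syt1 and -1.20 for Dcx. The 1 named of 4 astrocyte markers, S100b, was higher by 0.80. The 1 named of 5 oligodendrocyte lineage markers, Olig2, was higher by 0.65. Among the progenitor markers the differences were 1.27 for Sox9, 0.72 for Fabp7, -0.07 for Nes and -0.18 for Vim. The fibroblast list had 0 of 4 genes named. The part of these differences in the solute carrier values was not tested, and in RNA of whole cultures fewer cells of a type and less RNA per cell cannot be told apart.

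All 44 carriers had every NPC array above every ESC array, a pattern found at 26.1% of all genes, and limma called 43 of the 44 higher in NPCs (adjusted p under 0.05 and over 1.5-fold), against 15.4% of all genes. Because the members were chosen for their rise between these same arrays, these counts describe the choice and no p is given for a member. Without NPC replicate 3 limma called all 44, but the share of all genes called in that setting is not given here. The count of carriers without overlap cannot fall when an array is left out. The differences of NPC minus ESC means ran from 0.85 to 6.03 with a median of 1.51, against a median of -0.04 over all genes and 1.47 over the 1999 named rising genes. The carriers dimmest in ESCs, 7 of them with a mean below the 25th percentile of all genes, read near or below the level of Pou5f1 on the NPC arrays and were not shown to lie above background there, so no fold is given for them. Of the 44, 10 carriers differed by more than 2, 26 by 1 to 2 and 8 by less than 1. At the edge of the list stood Slc33a1 at 0.85, Slc35a4 at 0.88 and Slc39a1 at 0.88, and the last named gene of the table differed by 0.83. The next gene below that edge, also at 0.83, has no name here, so no carrier just outside can be given.

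**Figure D1:**
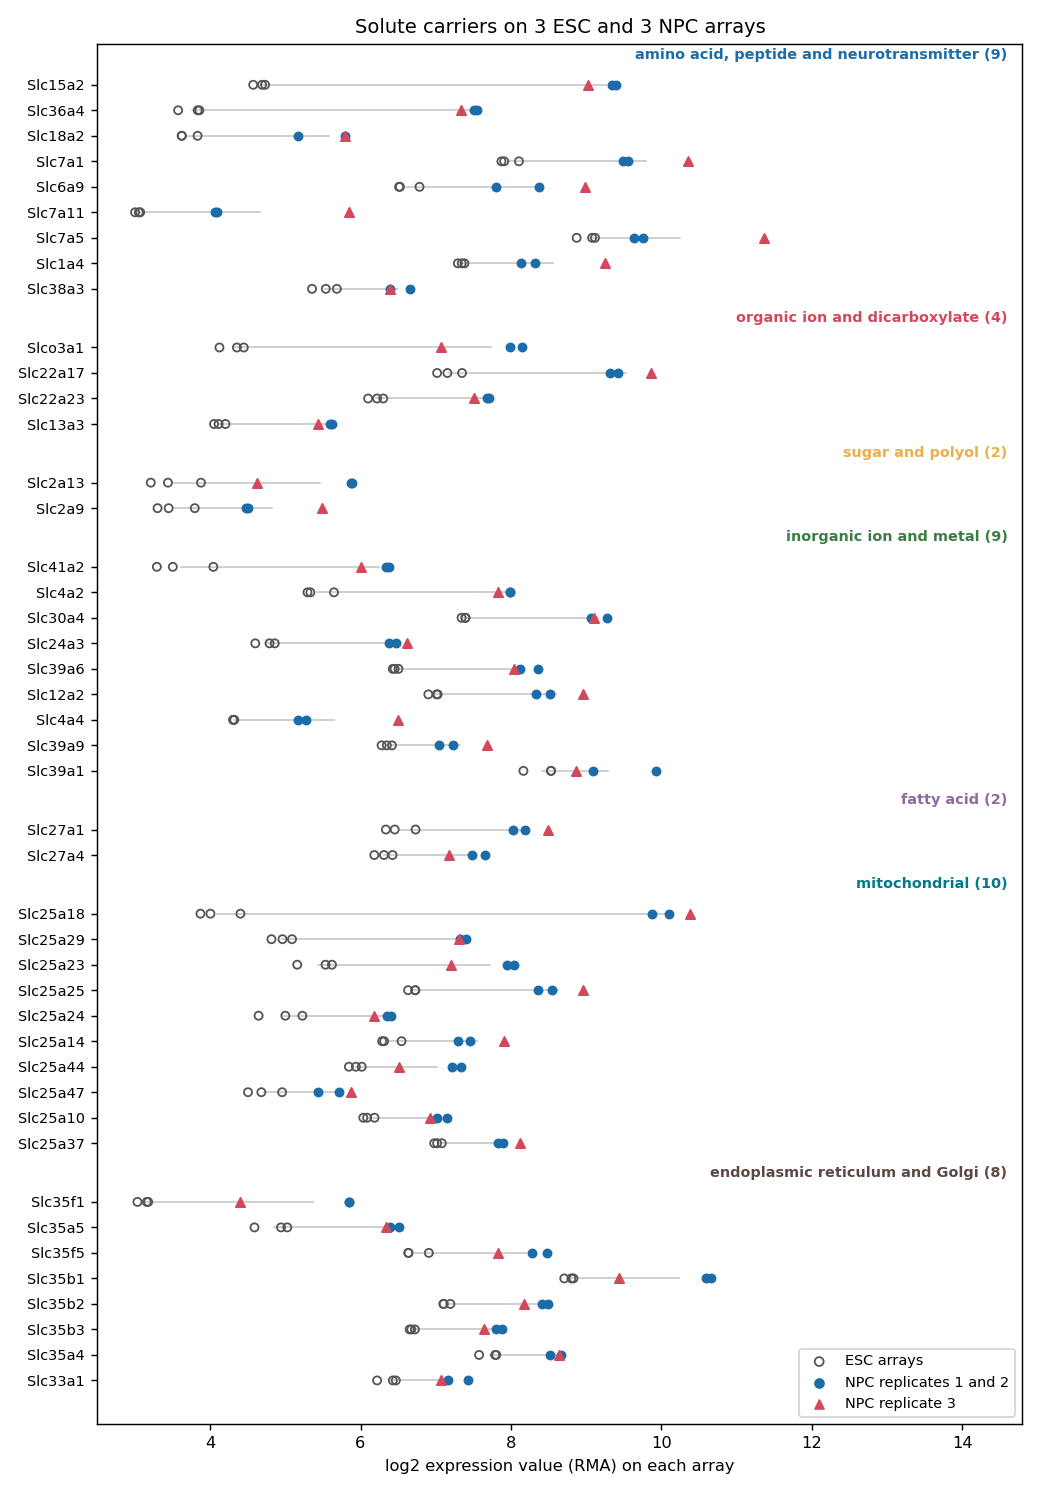
Log2 expression values of the 44 solute carriers on each of the 6 arrays, grouped by substrate or site, with ESC arrays as open circles, NPC replicates 1 and 2 as filled circles, NPC replicate 3 as triangles, and a grey line joining the means of the 2 cell types. For every carrier the NPC symbols lie to the right of the ESC symbols, and in several rows the triangle stands away from the filled circles.

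Promoter sequences were examined for short letter strings of SOX, POU and NF-I factors, which are among the families that the study followed in NPCs. They were also examined for the composite element of C/EBP and ATF proteins, through which ATF4 is known to induce genes when amino acids run short. RefSeq windows on GRCm38.p6, from 250 bases before to 50 after a transcription start, were at hand for 36 of the 44 carriers (51 windows), and none was used for Slc12a2, Slc25a37, Slc25a44, Slc35a4, Slc38a3, Slc39a6, Slc7a5 or Slco3a1. The composite element, searched as TGATGNAA on both strands, was found in 2 of the 51 windows, those of Slc7a11 and Slc1a4, and in 3.97% of all 32851 windows. In Slc7a11 it occurred in both directions, from 66 to 59 and from 47 to 40 bases before the start, and in Slc1a4 it lay across the start. The stretches before the start are shown for these genes in the direction of transcription, with the matches in capitals. The Slc7a11 stretch is chr3:50443614-50443863 on the minus strand and the Slc1a4 stretch, which runs 4 bases past the start to keep the match whole, is chr11:20332710-20332963 on the minus strand.
Slc7a11: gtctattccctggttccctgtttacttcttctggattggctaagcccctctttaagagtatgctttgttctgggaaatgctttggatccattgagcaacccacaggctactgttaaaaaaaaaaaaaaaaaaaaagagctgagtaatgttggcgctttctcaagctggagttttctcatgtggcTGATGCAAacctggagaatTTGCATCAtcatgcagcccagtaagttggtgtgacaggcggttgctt
Slc1a4: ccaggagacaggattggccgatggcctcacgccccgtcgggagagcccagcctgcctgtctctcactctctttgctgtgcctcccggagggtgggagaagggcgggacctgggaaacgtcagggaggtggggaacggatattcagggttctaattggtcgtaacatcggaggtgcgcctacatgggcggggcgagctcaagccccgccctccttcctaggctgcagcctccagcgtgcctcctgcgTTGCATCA

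The other motifs were searched in the same windows and on both strands. The SOX letters CATTGT occurred in 2 of the 51 windows, of Slc7a1 and Slc35b3, and in 12.6% of all windows. The NF-I letters TTGGCA occurred in 6 of the 51 windows, of Slc15a2, Slc25a47, Slc35b3, Slc39a1 and Slc41a2, and in 14.1% of all windows. The octamer ATGCAAAT, bound by POU factors, occurred in the window of Slc7a11 and in 1.74% of all windows, and there it overlapped the composite element that lies closer to the start. The Slc7a1 stretch, chr5:148392816-148393065 on the minus strand, and the Slc15a2 stretch, chr16:36784963-36785212 on the minus strand, are shown as the SOX and NF-I examples among the amino acid and peptide carriers, with those matches in capitals.
Slc7a1: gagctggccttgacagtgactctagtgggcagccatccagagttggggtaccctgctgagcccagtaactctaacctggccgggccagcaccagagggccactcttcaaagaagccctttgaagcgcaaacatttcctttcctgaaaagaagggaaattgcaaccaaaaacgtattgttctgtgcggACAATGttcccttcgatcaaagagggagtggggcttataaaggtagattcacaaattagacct
Slc15a2: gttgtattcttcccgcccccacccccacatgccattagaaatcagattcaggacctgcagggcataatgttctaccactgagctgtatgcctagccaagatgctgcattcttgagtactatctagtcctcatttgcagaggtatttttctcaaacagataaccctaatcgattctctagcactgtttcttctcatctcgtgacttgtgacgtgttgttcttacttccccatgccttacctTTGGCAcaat
A match is a description of these letters only. In the windows of protein-coding genes alone, the shares were 3.6% for the composite element, 11% for SOX, 13.1% for NF-I and 1.66% for the octamer. The windows of the carriers had a median GC content of 60.7%, from 42.7% in a window of Slc35b3 to 81.7% in a window of Slc30a4. The median was 56.3% in the windows of all protein-coding genes and 52.7% in all windows.

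Slc15a2 and Slc36a4 had the largest differences among the carriers of amino acids, peptides and neurotransmitters. Slc15a2, the proton-coupled peptide transporter PEPT2, read 4.69, 4.73 and 4.57 on the ESC arrays and 9.35, 9.40 and 9.03 on the NPC arrays, a difference of 4.59 or 24.2-fold. Slc36a4, a transporter of proline and tryptophan, read 3.84, 3.86 and 3.57 against 7.50, 7.54 and 7.33, a difference of 3.70. Its ESC values lay about where Pou5f1 read on the NPC arrays. In both genes the 3 NPC arrays stood close together and far above the ESC arrays. The glutamine transporter Slc38a3 differed by 0.95 and Slc18a2, which loads monoamines into vesicles, by 1.89. Slc18a2 was uneven among the NPC arrays and lower in NPC replicate 1, at 5.16, than in replicates 2 and 3, at 5.79 and 5.80.

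The remaining 5 carriers of this group were all highest in NPC replicate 3. Slc7a11, the cystine and glutamate exchanger xCT, read 3.00, 3.05 and 3.07 on the ESC arrays and 4.06, 4.09 and 5.85 on the NPC arrays. Slc7a5, the large neutral amino acid transporter LAT1, read 9.08, 8.87 and 9.12 against 9.75, 9.63 and 11.36. Slc1a4, the neutral amino acid transporter ASCT1, read 7.38, 7.34 and 7.29 against 8.13, 8.32 and 9.24. In each of these genes replicates 1 and 2 stood close together above the ESC arrays, and replicate 3 lay more than 1 above their mean. Slc7a1, which carries arginine and lysine, reached 10.35 in replicate 3 against 9.56 and 9.48 in the other NPC arrays. Slc6a9, the glycine transporter GlyT1, reached 8.98 against 7.80 and 8.38. Its values thus differed between replicates 1 and 2 as well. Of 12 listed enzymes that make and break down GABA, glutamate and glycine, 1 could be named, the GABA transaminase Abat, whose NPC mean lay 3.06 above its ESC mean.

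For these carriers the size of the difference depended on replicate 3. With all arrays it was 1.63 for Slc7a11 and 1.22 for Slc7a5, and without replicate 3 it was 1.03 and 0.67, the latter below the 0.83 of the last named gene. Slc7a5 was the carrier that limma did not call with all arrays, with an SD of 0.97 among its NPC values, and it was called when replicate 3 was left out. Slc1a4 went from 1.22 to 0.88, Slc6a9 from 1.78 to 1.48 and Slc7a1 from 1.83 to 1.56. Both remaining NPC arrays lay above the ESC arrays in each of them, which follows from the order on all arrays and is no separate check.

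Replicate 3 was also examined for genes of the amino acid response, the set of genes that ATF4 and its partners are known to induce. A list of 21 such genes without solute carriers had 10 named, all from the table of rising genes and so higher in NPCs by choice. Of the 10, limma called 9, against 97.4% of the named rising genes. All 10 were higher in replicate 3 than in the mean of replicates 1 and 2, with a median of 1.11, and 6 of them by more than 1. These counts are a description, because a rise that includes replicate 3 gave the genes their place in the table. The list was also chosen with earlier results of these data known. Without replicate 3 the differences of Chac1, Psat1 and Mthfd2 were 0.51, 0.74 and 0.79, below the 0.83 of the last named gene. These genes remain in the counts and the median. Chac1, which degrades glutathione, read 7.83, 7.78 and 11.14 on the NPC arrays against an ESC mean of 7.29, and it was the gene of the 10 that was not called. Ddit3, a stress-induced transcription factor also known as CHOP, read 8.14, 8.12 and 9.86. Atf5 read 8.71, 8.57 and 9.93, and the mitochondrial folate enzyme Mthfd2 9.90, 9.98 and 11.15. Psat1, an enzyme of serine synthesis, departed least, with 12.05, 12.12 and 12.42. Replicate 3 was higher than the mean of the other NPC arrays at 48.4% of all genes and 43.9% of the named rising genes, and by more than 1 at 2.2% and 6.6%.

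**Figure D2:**
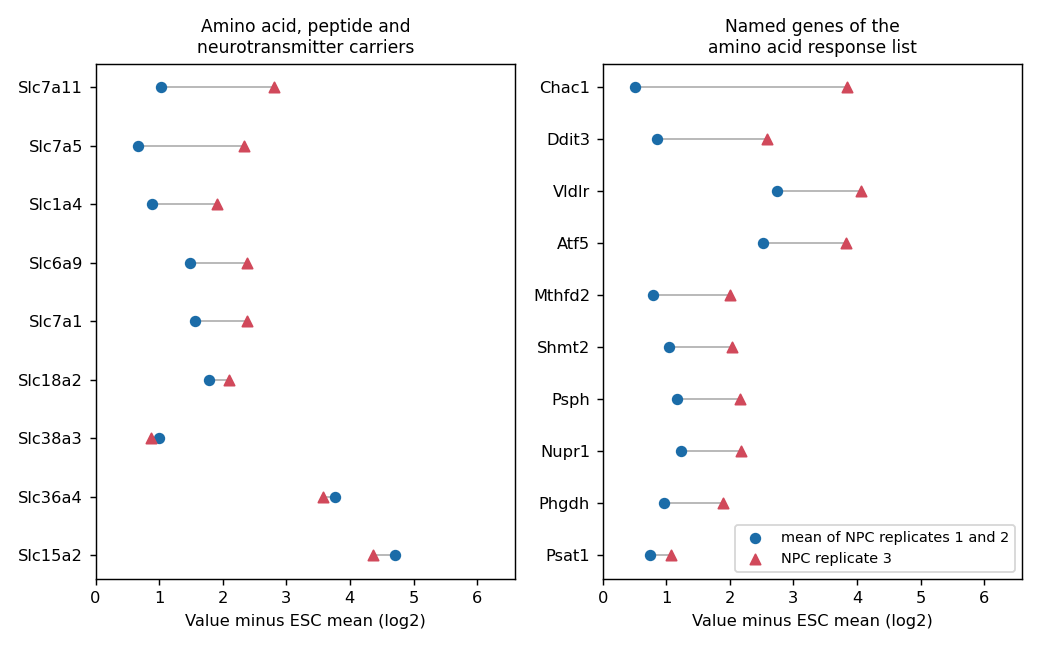
Rise over the ESC mean (log2) in the mean of NPC replicates 1 and 2 (circles) and in NPC replicate 3 (triangles), for the 9 amino acid, peptide and neurotransmitter carriers on the left and the 10 named genes of the amino acid response list on the right. The triangle lies to the right of the circle for 6 of the 9 carriers and for all 10 listed genes, by the most in Slc7a11 and Chac1.

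Among the 4 carriers of organic ions and dicarboxylates the largest difference was that of Slco3a1. Slco3a1, of the organic anion transporting polypeptides, read 4.12, 4.36 and 4.45 against 7.99, 8.14 and 7.07, a difference of 3.42, and of 3.76 without replicate 3. Replicate 3 was the lowest NPC array for this gene, and it still lay 2.62 above the highest ESC array.

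Slc22a17, a receptor for lipocalin-2, differed by 2.36 and was highest in replicate 3, at 9.86 against 9.42 and 9.32. The orphan transporter Slc22a23 differed by 1.43, and Slc13a3, which carries dicarboxylates such as succinate with sodium, by 1.42. Their NPC arrays spanned 0.20 and 0.19. The sugar and polyol carriers went apart in replicate 3. Slc2a13, the proton-coupled inositol transporter HMIT, read 3.21, 3.44 and 3.88 on the ESC arrays and 5.89, 5.87 and 4.62 on the NPC arrays. Slc2a9, a transporter of urate, read 3.30, 3.45 and 3.80 against 4.48, 4.51 and 5.49. Their differences of means were 1.95 and 1.31 with all arrays and 2.37 and 0.98 without replicate 3.

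The 9 carriers of inorganic ions and metals differed by 0.88 to 2.63, with a median of 1.71. Slc41a2, a magnesium transporter, had the largest difference of them. It read 3.29, 3.50 and 4.04 on the ESC arrays and 6.38, 6.34 and 6.0035 on the NPC arrays, with more spread among the ESC arrays than among the NPC arrays. The chloride and bicarbonate exchanger Slc4a2 differed by 2.51, from 5.42 ± 0.19 in ESCs to 7.94 ± 0.09 in NPCs (SD, n = 3 arrays). The sodium, potassium and chloride cotransporter Slc12a2, or NKCC1, differed by 1.62 and the potassium-dependent sodium and calcium exchanger Slc24a3 by 1.74.

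Slc4a4, the sodium bicarbonate cotransporter NBCe1, departed from this pattern. It read 4.31, 4.31 and 4.32 on the ESC arrays and 5.16, 5.28 and 6.49 on the NPC arrays. The difference of means was 1.33, and 0.91 without replicate 3, in which it lay 1.27 above the other NPC arrays. Its relative Slc4a2 did not share this, with NPC values of 7.99, 7.99 and 7.83. Of the sodium pump subunits, whose gradient drives many of these carriers, 0 of 12 listed genes could be named.

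Zinc carriers of both directions were among the members. Slc30a4, or ZnT4, which moves zinc out of the cytosol, differed by 1.78, with 7.39, 7.34 and 7.40 on the ESC arrays and 9.07, 9.28 and 9.11 on the NPC arrays. The importers of the ZIP family differed by 1.71 for Slc39a6, 0.97 for Slc39a9 and 0.88 for Slc39a1. Without NPC replicate 1 the difference of Slc39a1 was 0.57, and limma did not call it. Slc39a1 was the least even of the 44 carriers between NPC replicates 1 and 2, which read 9.93 and 9.08, and replicate 3 at 8.87 lay only 0.34 above its highest ESC array. Of the fatty acid carriers, Slc27a1 read 6.73, 6.34 and 6.45 on the ESC arrays and 8.03, 8.18 and 8.49 on the NPC arrays. Slc27a1 and Slc27a4 differed by 1.73 and 1.13, and replicate 3 was the highest NPC array for the former and the lowest for the latter.

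The mitochondrial carriers of the Slc25 family were the largest family, with 10 members. Slc25a18, which brings glutamate into mitochondria, read 4.0044, 4.40 and 3.87 on the ESC arrays and 9.88, 10.10 and 10.38 on the NPC arrays. At 6.03, its difference was the largest of the 44 carriers and stood far from the rest of its family, which lay between 0.92 and 2.39. Slc25a29, a carrier of basic amino acids, came next. Its ESC values were 4.96, 4.82 and 5.09 and its NPC values 7.40, 7.33 and 7.31, and its NPC SD of 0.05 was the smallest of the 44 carriers.

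Slc25a23, Slc25a24 and Slc25a25 encode the calcium-regulated carriers that exchange ATP-magnesium for phosphate, and all of them were members. Their differences were 2.29, 1.35 and 1.92. In replicate 3 they went different ways, since Slc25a23 lay 0.79 below the mean of the other NPC arrays and Slc25a25 lay 0.51 above it. The remaining mitochondrial carriers had smaller differences. Slc25a14, an uncoupling protein relative, differed by 1.17, the branched-chain amino acid carrier Slc25a44 by 1.09, Slc25a47 by 0.96, the dicarboxylate carrier Slc25a10 by 0.93 and the iron carrier mitoferrin 1, or Slc25a37, by 0.92. Slc25a44 read 7.33, 7.21 and 6.52 on the NPC arrays, and it and Slc39a1 were the carriers whose lowest NPC array was less than 1.5-fold above the ESC mean. No mitochondrial carrier departed by more than 1 in replicate 3.

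Carriers grouped, by family and without a check of each member, under the endoplasmic reticulum and Golgi were mostly lower in replicate 3, several of them only slightly. These are the 7 members of the Slc35 family, known for bringing nucleotide sugars and related donors into the secretory pathway, and Slc33a1, which carries acetyl-CoA into the endoplasmic reticulum. Replicate 3 lay below the mean of the other NPC arrays for 7 of the 8, against 56.1% of the named rising genes. The exception was Slc35a4, by 0.05. The departures of Slc35a5, Slc35b3, Slc33a1 and Slc35b2 ran from -0.11 to -0.28. They lay above -0.48, the 25th percentile of the named rising genes. Slc35f1 read 3.03, 3.18 and 3.16 on the ESC arrays and 5.84, 5.85 and 4.40 on the NPC arrays, and without replicate 3 its difference went from 2.24 to 2.72. Slc35b1, which exchanges ATP and ADP across the membrane of the endoplasmic reticulum, read 8.83, 8.80 and 8.71 against 10.59, 10.66 and 9.44. Its difference was 1.45, and 1.84 without replicate 3. In Slc35b1 and Slc35f1 replicate 3 lay closer to the ESC mean than to the mean of the other NPC arrays. The same held for Slc2a13, Slc25a44 and Slc39a1 of other groups.

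Slc35b2 and Slc35b3 bring the sulfate donor PAPS into the Golgi and differed by 1.22 and 1.09. Their NPC values of 8.49, 8.41 and 8.17 and of 7.80, 7.88 and 7.65 were more even than those of Slc35b1. Of 21 listed genes that make PAPS or pass its sulfate to glycans, 15 have no name here and 6 could be named. All 6 were higher on every NPC array than on every ESC array and called by limma, as were 98.5% and 97.4% of the named rising genes. They include Papss1, which makes the donor and differed by 2.15, and the glycan sulfotransferases Chst7 and Chst2, which differed by 5.29 and 3.49. The difference of Chst2 was 2.87 without replicate 3, and its NPC arrays read 7.30, 7.17 and 9.09. These genes too were named only because they rose. Slc35a5 and Slc35f5 differed by 1.56 and 1.47, Slc35a4 by 0.88 and Slc33a1 by 0.85.

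Across the 44 carriers, replicate 3 differed from the mean of NPC replicates 1 and 2 by more than 1 at 7. It was higher at Slc7a11, Slc7a5, Slc4a4 and Slc1a4, or 4 of 44 against 2.2% of all genes, and lower at Slc35f1, Slc2a13 and Slc35b1, or 3 of 44 against 1.8% of all genes. Among the 1999 named rising genes, chosen in the same way as the carriers, the shares were 6.6% and 8.55%, and those of the carriers were 9.09% and 6.82%. The shares of carriers that departed were thus near those of the rising genes. Slco3a1 at -0.9987 and Slc2a9 at 0.9966 fell just short of this limit. Replicates 1 and 2 differed from each other by more than 1 at 0 of the 44 carriers and at 0.0408% of all genes, and by 0.84 at most, in Slc39a1. The carriers' SD had a median of 0.13 in ESCs and 0.245 in NPCs, against 0.11 and 0.24 over the named rising genes.

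**Figure D3:**
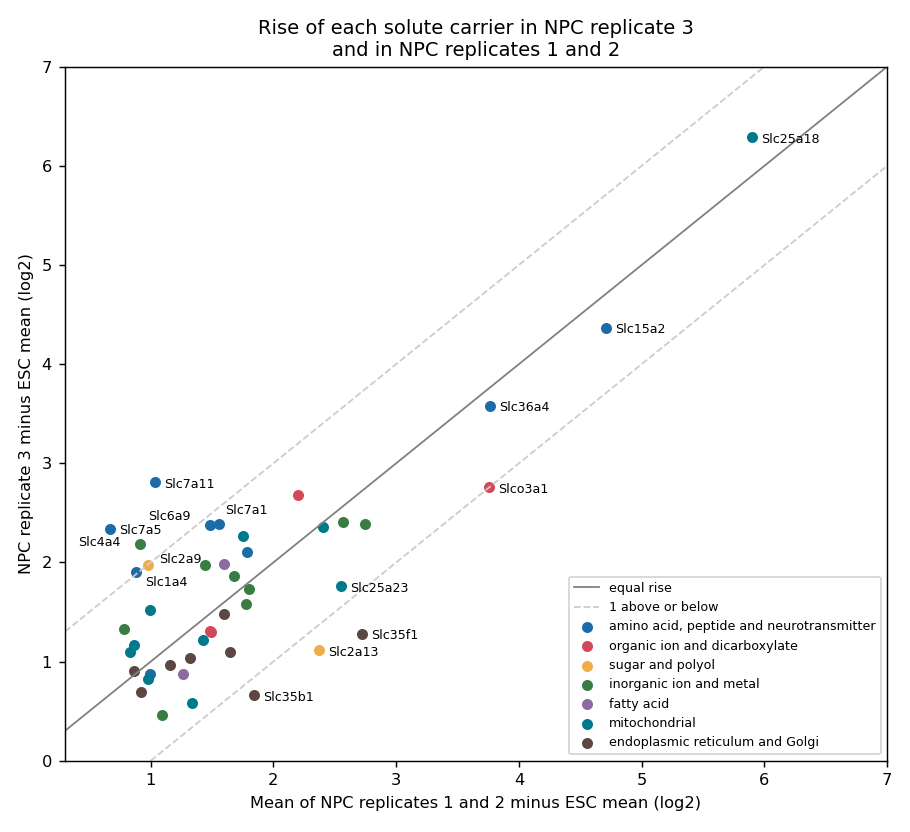
Rise of each of the 44 carriers over its ESC mean (log2) in the mean of NPC replicates 1 and 2 (x axis) and in NPC replicate 3 (y axis), colored by group, with a line of equal rise and dashed lines 1 above and below it. Slc7a11, Slc7a5, Slc4a4 and Slc1a4 lie above the upper dashed line and Slc35f1, Slc2a13 and Slc35b1 below the lower one, while Slc25a18, Slc15a2 and Slc36a4 lie near the line of equal rise.

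By group, the median departure of replicate 3 was 0.82 for the amino acid, peptide and neurotransmitter carriers, where 6 of 9 were higher, and -0.26 for the carriers of the endoplasmic reticulum and Golgi. It was -0.18 for organic ion and dicarboxylate carriers, -0.06 for inorganic ion and metal carriers and 0.10 for mitochondrial carriers, of which 5 were higher and 5 lower. The 2 sugar and polyol carriers had a median of -0.13 and the 2 fatty acid carriers one of -0.0021. Over the named rising genes the median was -0.09, and their 10th and 90th percentiles were -0.92 and 0.73. The groups hold between 2 and 10 carriers and replicate 3 is 1 array, so these values have no replicate check.

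**Figure D4:**
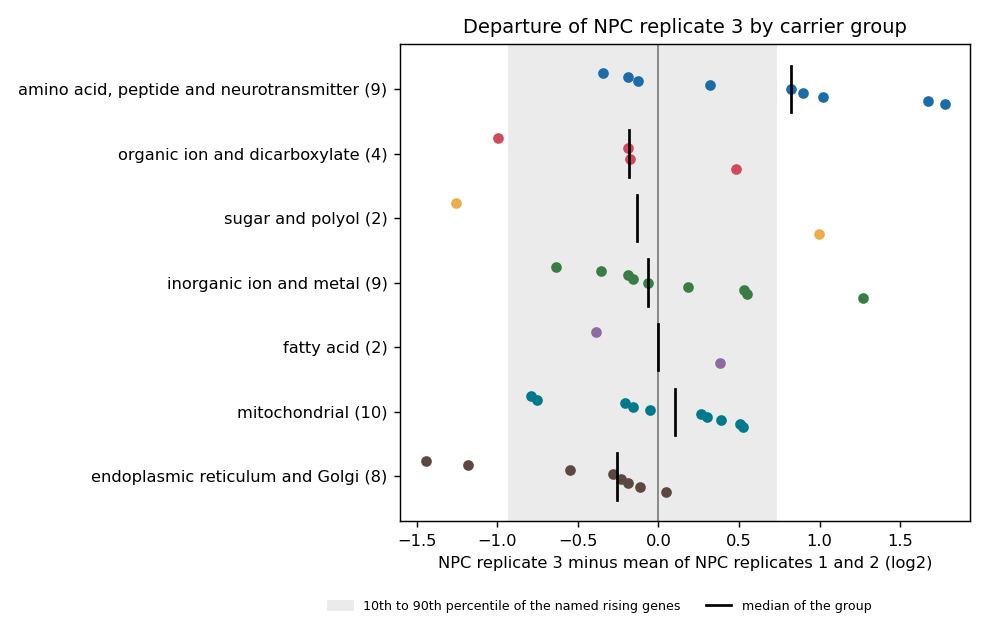
NPC replicate 3 minus the mean of NPC replicates 1 and 2 (log2) for each of the 44 carriers, by group with the number of members in brackets, a black bar at the group median and a shaded band from the 10th to the 90th percentile of the 1999 named rising genes. The amino acid group reaches furthest to the right, up to 1.78, and the carriers of the endoplasmic reticulum and Golgi lie to the left of 0 except Slc35a4.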

How the data were processed

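The authors hybridized RNA of 3 ESC and 3 NPC replicates to Affymetrix arrays and deposited log2 values from RMA (background correction, quantile normalization between arrays and a summary of probes, here per Ensembl gene with the BrainCDF annotation, whose version is not given in the sources used here). Such values compress differences of dim genes, and the ESC means of 7 carriers lay below the 25th percentile of all genes. Of 17208 rows, 64 control probe sets were left out. Rows carry no gene names and were named where all 6 values equaled a named row of the study's tables within 0.0001, which gave 2004 names. The fold changes and p-values in those tables were not used.

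Models were fitted in limma 3.58.1 (R 4.3.3; lmFit, then eBayes, without covariates) over all 17144 genes with Benjamini-Hochberg adjustment, and tested on simulated data. Calls needed an adjusted p under 0.05 and over 1.5-fold, the study's thresholds, with its moderated Welch test as an alternative. Arrays hold no counts, and their number limits the precision. No additional normalization was applied, and detection calls were not used. Groups came from the sample labels. The members, the lists and the motifs were chosen with earlier results of these data known. Of the 46 members, 2 are not reported here and enter no count or figure of the carriers. Every other member is named, all 6 values being printed for the 5 largest differences, for members departing by more than 1 in NPC replicate 3 and for the leading member of a group. Other genes come from the lists. Protein sequences, planned as a description, were not analysed here. Python 3.11.15 and pandas 2.3.3 were used for tables.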

Additional observations from a re-analysis of the deposited data

How the results depend on the processing

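The number of carriers called higher in NPCs, 43 of 44 in limma, was 43 in the moderated Welch test, with robust variances, with no fold threshold and with a filter at the 25th percentile of the mean value, which left out 1 carrier. It was 44 with a mean-variance trend, quantile normalization or median centring, and between 41 and 44 with 1 array left out. Lower counts came from a threshold over 2-fold (35), a filter at the median, which left out 13 carriers and called the other 31, and an unmoderated test with separate variances (31). The share of all genes called was 15.4% in the main setting and is not given for the others. The counts therefore do not show whether the carriers moved apart from all genes. Replicate numbers do not pair the arrays, as deviations of same-numbered arrays correlated at 0.0264, 0.0110 and -0.0064, and with the replicate number as a block 43 carriers were called, without Slc39a1 and with Slc7a5. All 44 kept every NPC array above every ESC array under both scalings. Leaving out an array cannot break that order, so it was no check of this count.

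The count of carriers departing in NPC replicate 3 depended on the limit. With 0.58 in place of 1 it was 7 higher and 7 lower, against 4 and 3, and with quantile normalization 5 and 4, with median centring 5 and 3. Over all genes the median difference went from -0.04 to 0.12 with median centring, which raised the carriers' differences by 0.15 in the median. Of 396 differences of single carriers under an alternative, 0 reversed, 381 moved by less than the SD among arrays and 15 by more. Of these 15, 14 were under median centring and 1 under quantile normalization. The replicate block leaves a difference unchanged, and leaving out 1 array cannot shift it by as much as that SD. Only the scalings could thus give a larger move, and most of the 381 say nothing about stability. Slc7a11, Slc7a5 and Slc39a1 were not called with any ESC array left out, and Slc39a1 was not called without NPC replicate 1.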
